A study of Homo sapiens with 18 samples.

Results

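The 10 tubulin isotype genes analysed here were TUBA1A, TUBA1B, TUBA1C, TUBA4A, TUBB, TUBB2A, TUBB2B, TUBB3, TUBB4B and TUBB6, which are 10 of the 21944 genes listed in the authors' table. They were found by gene symbol, and each was listed at 3, 6 and 24 h. The set was chosen by their measured values in this series, with earlier results of the LN411 against FN comparison and of the mean levels known, so that their levels are a description without a test. The study reseeded human embryonic stem cell-derived pancreatic progenitors at day 19 of differentiation on LN411, a laminin isoform, or on fibronectin (FN), and sequenced poly(A) RNA 3, 6 or 24 h later. There were 3 samples in each of the 6 groups (LN411 3 h, LN411 6 h, LN411 24 h, FN 3 h, FN 6 h and FN 24 h) and 18 samples in all. All groups were dissociated with accutase before reseeding and differ, as labelled, in matrix and time only. In the study's text and the labels' growth protocol, the progenitors came from NGN3-GFP cells, which carry a reporter for the endocrine factor NEUROG3, while the labels' cell line field names HUES4.

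The value used for each gene is the authors' mean normalized count, which is 1 number over samples that the sources used here do not name. It was the same at the 3 times within a relative gap of 4.89e-07. It holds no separate LN411 or FN value, no time course and no spread between samples, and no LN411 against FN result is given here for any tubulin gene, since the authors' comparison columns were not used. The depth of the libraries is unknown.

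Microtubules are hollow polymers of dimers of an alpha and a beta tubulin. Vertebrates carry several genes for each class, known as isotypes, whose products copolymerise and differ in part in an acidic tail at the carboxyl end. That tail lies on the outer face of the microtubule, where enzymes add or remove amino acids and where motors and microtubule-associated proteins bind. Epithelial cells use microtubules to position organelles, to build cilia and to divide, and some isotypes are known as markers of neurons.

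The end of the coding sequence is shown first for the beta tubulins, because the carboxyl tail is a known place of difference between isotypes. The 90 bases up to and including the stop codon are given 5′ to 3′ on the coding strand for the Ensembl canonical transcript of GENCODE v44 on GRCh38. Capitals mark the codons after the last run of 5 codons that encode the same residue in all beta members, without the stop codon.
TUBB, chr6:30724308-30724397, plus strand: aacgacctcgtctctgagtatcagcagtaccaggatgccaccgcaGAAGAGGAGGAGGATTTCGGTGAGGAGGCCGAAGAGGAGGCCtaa
TUBB2A, chr6:3153863-3153952, minus strand: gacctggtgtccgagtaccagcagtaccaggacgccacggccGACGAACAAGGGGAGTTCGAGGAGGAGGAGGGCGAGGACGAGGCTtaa
TUBB2B, chr6:3224751-3224840, minus strand: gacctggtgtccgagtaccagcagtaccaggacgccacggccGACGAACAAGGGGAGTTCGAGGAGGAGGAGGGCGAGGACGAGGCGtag
TUBB3, chr16:89935715-89935804, plus strand: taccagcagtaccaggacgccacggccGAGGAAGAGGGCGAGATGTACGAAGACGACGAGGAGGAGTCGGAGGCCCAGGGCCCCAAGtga
TUBB4B, chr9:137243467-137243556, plus strand: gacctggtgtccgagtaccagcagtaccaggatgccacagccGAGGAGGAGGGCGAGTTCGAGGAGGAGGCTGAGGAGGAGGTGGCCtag
TUBB6, chr18:12326041-12326130, plus strand: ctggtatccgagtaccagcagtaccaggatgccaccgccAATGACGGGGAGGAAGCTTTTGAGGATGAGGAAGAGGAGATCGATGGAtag

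The beta tails were 14 to 20 codons long, with 10 or 11 codons for glutamate or aspartate. TUBB3, which encodes the class III beta tubulin of neurons, had the longest tail with 20 codons and a lysine codon at its end. TUBB2A and TUBB2B had tails of 15 codons each that encode the same residues. TUBB4B, the class IVb beta tubulin found in most tissues and in cilia, had 15 codons, and TUBB6, the class V beta tubulin, had 16.

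The start of the coding sequence carries the signal of tubulin autoregulation, by which cells with an excess of free dimers degrade tubulin mRNA as it is translated. The factor TTC5 reads the first residues of the growing chain. The first 36 coding bases are shown for 3 beta tubulins, with the first 4 codons in capitals.
TUBB: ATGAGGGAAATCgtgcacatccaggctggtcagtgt
TUBB2A: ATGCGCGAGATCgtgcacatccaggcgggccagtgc
TUBB2B: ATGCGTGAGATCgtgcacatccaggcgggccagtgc

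Over the 6 beta members, the first 12 bases took 4 spellings, which all encode the same 4 residues. TUBB2A and TUBB2B differed in spelling, but not in encoded residues, within these 12 bases, although they are the closest pair in the set.

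TUBB4B had the highest level of the members. Its mean normalized count was 17015.7, at percentile 97.9 of the 21944 listed genes, and 8353 per kb of exon. TUBA1A, an alpha tubulin known for its role in developing neurons, followed with a mean normalized count of 13467.5, at percentile 97.1, and 3523 per kb. TUBB4B was 2.37-fold TUBA1A per kb of exon, 1.63-fold per kb of the longest transcript, 1.43-fold per kb of coding length, 1.35-fold per kb of the canonical transcript and 1.26-fold by mean normalized count. Levels per kb divide the mean normalized count by the length of the union of the gene's exons. Comparisons between genes below are on that scale unless another is named. The coding length is the union of coding bases over all transcripts of a gene.

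**Figure D1:**
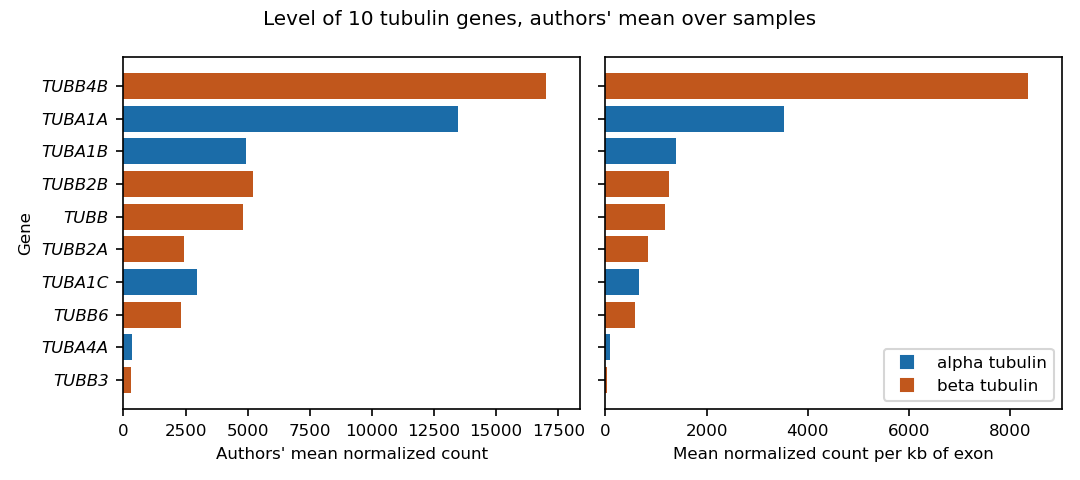
Authors' mean normalized count (left) and mean normalized count per kb of exon (right) of the 10 genes, ordered by the level per kb. Bars start at 0, alpha tubulins are blue and beta tubulins orange, and no error is drawn because the table holds 1 mean for each gene. TUBB4B (8353 per kb) and TUBA1A (3523 per kb) stand above the rest, and TUBA4A (96.9 per kb) and TUBB3 (42.0 per kb) are barely visible.

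Among the alpha tubulins, TUBA1A made up 62.1% of the summed level per kb. TUBA1B, the main alpha tubulin of many dividing cells, had a mean normalized count of 4953.2 and 1386 per kb, 24.4% of the class. TUBA1A was 2.54-fold TUBA1B per kb. Shared sequence and overlapping exons, given below, make this ratio uncertain. Of the canonical transcripts, 72.6% of that of TUBA1B and 6.22% of that of TUBA1A overlap exons of other genes on the opposite strand. How far this moved the ratio was not tested. TUBA1C, a further broadly used alpha tubulin, had a mean normalized count of 2966.9 and 666 per kb, 11.7% of the class. TUBA4A had a mean normalized count of 358.2 and 96.9 per kb, 1.71% of the class, and TUBA1A exceeded it 36.4-fold per kb.

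Among the beta tubulins, TUBB4B made up 68.1% of the summed level per kb. TUBB2B, known from the developing nervous system, had a mean normalized count of 5217.8 and 1254 per kb, 10.2% of the class. TUBB, the class I beta tubulin present in most cells, had 4819.9 and 1184 per kb, 9.65% of the class. TUBB2A, the near copy of TUBB2B, had 2454.0 and 844 per kb, 6.88% of the class. TUBB6 had 2307.6 and 586 per kb, 4.77% of the class.

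TUBB3 had the lowest level of the members. Its mean normalized count was 311.5, at percentile 50.5 of listed genes, and 42.0 per kb, 0.342% of the beta class. TUBB4B exceeded it 199-fold per kb of exon and 59.6-fold per kb of the canonical transcript. Of the canonical transcript of TUBB3, 92.8% lies in exons of another gene on the same strand, as given below. Whether this lowered its count, and so its rank and these ratios, was not tested. Of 5 neuron markers, 4 were listed, with mean normalized counts of 7.19 to 679.8. SNAP25 was at 679.8, SYP at 241.2, ELAVL3 at 16.0 and RBFOX3 at 7.19, and ELAVL4 was not listed. In bulk RNA, fewer cells of a type and less RNA per cell cannot be told apart.

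The members summed to a mean normalized count of 53872, which is 0.101% of the 53217583 summed over all listed genes. Their median level per kb was 1014, against 76.2 over all listed genes with a length, and 5 of the 10 lay at or above the 90th percentile of the level per kb. The members were chosen by measured values, so comparisons of their level with other genes, here and below, are a description only. Alpha tubulins made up 31.6% of the members' summed level per kb and beta tubulins 68.4%. By mean normalized count without a length, alpha tubulins made up 40.4%. The protein classes are used in equal numbers in the dimer, and mRNA levels say nothing here about protein.

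The length used for a gene moved these values. TUBB4B has a short exon union of 2037 bases and TUBB3 a long one of 7421 bases, 3.64 times as long. The coding length can exceed the canonical coding sequence, as for TUBB3 with 1964 against 1353 bases. TUBB4B was first and TUBA1A second under each of the 5 lengths tried. The bottom pair was TUBA4A and TUBB3 under each of them, and TUBB3 stood above TUBA4A only with the canonical transcript, at 183 against 175 per kb. The middle of the order was less firm. With the coding length, TUBB2B stood above TUBB and TUBA1B, at 3899.7 against 3602 and 3296 per kb, while with the exon union TUBA1B stood above both.

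**Figure D2:**
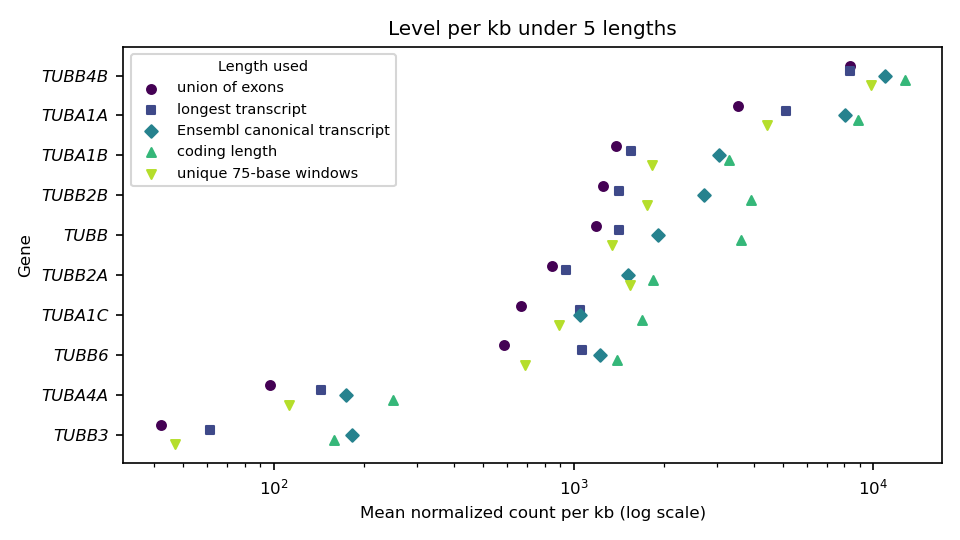
Mean normalized count per kb, on a log axis, for each gene under 5 lengths (union of exons, longest transcript, Ensembl canonical transcript, coding length and number of unique 75-base windows), 1 symbol for each length. TUBB4B and TUBA1A lead under every length, and TUBB3 spans 42.0 to 183 per kb.

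The genes lie on several chromosomes of GRCh38. TUBA1B (chr12:49127782-49131397, minus strand), TUBA1A (chr12:49184686-49189080, minus strand) and TUBA1C (chr12:49188736-49274600, plus strand) lie together. TUBB2A (chr6:3153497-3157544) and TUBB2B (chr6:3223324-3231730) are neighbours on the minus strand, and TUBB lies on the same chromosome at chr6:30717435-30725538 on the plus strand. The others are TUBB4B (chr9:137241287-137243707, plus strand), TUBA4A (chr2:219249710-219277902, minus strand), TUBB3 (chr16:89921392-89938761, plus strand) and TUBB6 (chr18:12307669-12344320, plus strand).

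The coding sequences of neighbours were close to identical. TUBB2A and TUBB2B shared 98.2% of bases over the aligned codons, and 2 of 445 codons encoded different residues. TUBA1A and TUBA1B shared 97.2% of bases with 2 of 451 codons encoding different residues. TUBA1C shared 96.1% with TUBA1A, with 7 of 449 codons encoding different residues. TUBA4A shared 84.8% to 86.1% with the other alpha members. Over the 15 pairs of beta members the identity ran from 80.9% to 98.2%, with a median of 86.2%, and TUBB and TUBB6 were the least alike.

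**Figure D3:**
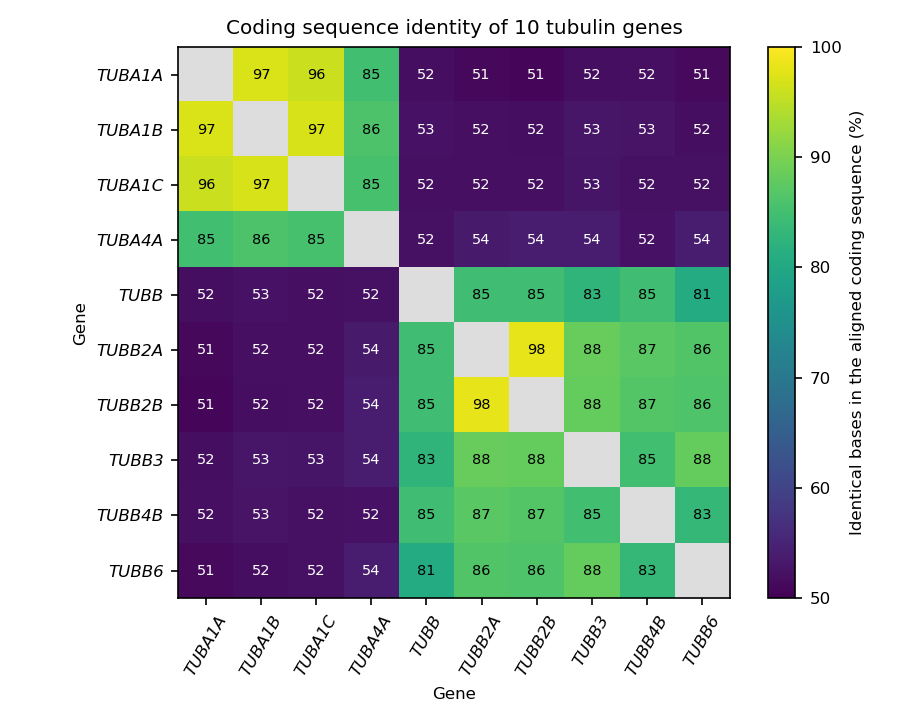
Percent of identical bases over codons aligned by their translation, for each pair of the 10 genes, as colour and as a rounded number. The alpha pairs run from 84.8% to 97.2% and the beta pairs from 80.9% to 98.2%, while alpha with beta pairs run from 50.9% to 54.0%.

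Reads that fit such stretches equally well at several places are not counted, since STAR's gene counts use uniquely mapped reads. The longest run common to the coding sequences of TUBB2A, TUBB2B, TUBB3 and TUBB4B had 140 bases, from coding base 1108 to 1247, and lies within 1 exon of each gene. It is at chr6:3153954-3154093 in TUBB2A, chr6:3224842-3224981 in TUBB2B, chr16:89935559-89935698 in TUBB3 and chr9:137243326-137243465 in TUBB4B.
shared by TUBB2A, TUBB2B, TUBB3 and TUBB4B: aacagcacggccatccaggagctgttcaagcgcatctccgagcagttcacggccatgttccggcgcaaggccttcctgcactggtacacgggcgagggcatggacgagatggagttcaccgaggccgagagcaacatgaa

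TUBB2A and TUBB2B alone shared a run of 725 bases, from coding base 610 to 1334.

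The share of each gene that a read can tell apart was taken from all windows of 75 bases in its exons. A window counted as shared where the same letters, on either strand, occur elsewhere on the primary chromosomes outside the gene. Windows that cross an exon junction were not sought in the spliced transcripts of other genes. The shares and copy counts of canonical transcripts can therefore be too low. TUBB2A had the highest share, with 40.9% of its exon windows and 58.6% of those of its spliced canonical transcript. TUBB2B had 24.4% and 52.1%, TUBA1B 21.1% and 46.6%, and TUBA1A 15.4% and 31.2%. TUBA1C had 12.4% and 17.1%.

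The other members shared less on the primary chromosomes. TUBB had 4.82% of exon windows and 10.5% of canonical windows, TUBB4B 4.63% and 5.64%, and TUBB3 2.17% and 6.80%. TUBA4A and TUBB6 had no shared window of 75 bases. With the alternate loci of the assembly included, all 3775 exon windows of TUBB had a copy, and whether the authors' index held these loci is not given in the sources used here. The mean normalized count of TUBB was 4819.9.

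**Figure D4:**
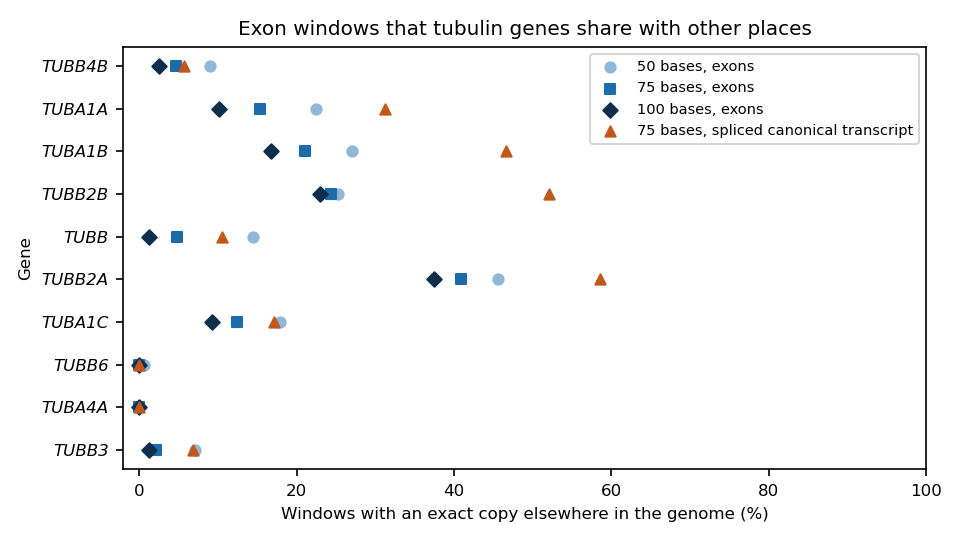
Percent of windows with an exact copy elsewhere on the primary chromosomes, for each gene, by window length (50, 75 and 100 bases of exons) and for 75-base windows of the spliced canonical transcript. TUBB2A lies highest at 40.9% of 75-base exon windows, and TUBA4A and TUBB6 lie at 0.

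Of the 75-base windows of the spliced canonical transcripts, copies lay in other members, in pseudogenes and in a few other places. TUBB2A and TUBB2B shared 864 windows with each other, and each shared 111 with TUBB3 and 69 with TUBB4B. TUBA1A shared 402 windows with TUBA1B and 245 with TUBA1C, and TUBA1B shared 382 with TUBA1C. Among pseudogenes, TUBBP1 held 213 windows of TUBB, TUBB2BP1 held 244 of TUBB2B and TUBAP2 held 174 of TUBA1B. TUBB4A, which is no member, held 48 of TUBB2A and 48 of TUBB2B, and 37 windows of TUBB had a copy in no annotated gene. The ratio of TUBB2B to TUBB2A was 2.13 by mean normalized count, 1.49 per kb of exon and 1.13 per unique window. By shared windows alone, the levels of this pair are therefore uncertain, and those of TUBA1A, TUBA1B and TUBA1C to a lesser degree. This order leaves out overlaps with other genes, which are given next and are large for TUBA1B.

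Members also overlap other genes. Of the canonical transcript of TUBB3, 92.8% lies in exons of a readthrough gene on the same strand (ENSG00000198211), which was not listed in the table. STAR assigns a read that overlaps exons of more than 1 gene to neither, and whether this lowered the TUBB3 count was not tested. Of the canonical transcript of TUBA1B, 72.6% overlaps exons of the antisense gene TUBA1B-AS1. Over the union of exons, TUBA1A and TUBA1C overlap by 345 bases on opposite strands, TUBB6 overlaps AFG3L2 by 837 bases and TUBA4A overlaps STK16 by 628 bases. Of canonical transcripts, 30.6% of TUBA4A, 23.6% of TUBA1C, 21.4% of TUBB and 7.93% of TUBB4B overlap exons on the opposite strand. The canonical transcripts of TUBB6, TUBB2A and TUBB2B have no such overlap. The sources used here do not say whether counting used the strand, so these levels are uncertain where exons overlap.

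The remaining alpha and beta genes were low or not listed, with 1 exception. Of 9 such genes, 4 were listed. TUBB4A, a beta tubulin of neurons and glia, had a mean normalized count of 1011.9 and 314 per kb, above TUBA4A and TUBB3. TUBB1, the beta tubulin of platelets, was at 34.3, TUBA8 at 10.7 and TUBA3D at 5.33. TUBA3C, TUBA3E, TUBAL3, TUBB8 and TUBB8B were not listed. Of the genes for gamma tubulin, which nucleates microtubules, TUBG1 had a mean normalized count of 1820.3 and 422 per kb. TUBG2 had 639 and 229 per kb. TUBG1 and TUBG2 shared 246 windows of 75 bases of their canonical transcripts. TUBD1 and TUBE1, the delta and epsilon tubulins of centrioles, had 1214 and 537.

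Tubulin pseudogenes had low counts beside the members. Reads that fit a pseudogene and another place equally well are not counted, so these counts can be too low. Of 51 alpha, beta and gamma tubulin pseudogenes annotated in GENCODE v44, 9 were listed. They summed to a mean normalized count of 612.5, which is 1.14% of the sum of the alpha and beta members. An alpha tubulin pseudogene on chromosome 1 (ENSG00000214796) held 518.3 of it. TUBAP13 had 19.0, TUBBP1 18.6, TUBG1P 16.1 and TUBA3FP 10.5.

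The CCT and prefoldin lists, which act in tubulin folding, had medians per kb of 3823 and 1391, above the 1014 of the members. All 8 subunits of the CCT chaperonin, which folds new tubulin and actin chains, lay at or above the 90th percentile of the level per kb, with 1723 to 5096 per kb. CCT7 (5096 per kb) and CCT8 (4190.4 per kb) were the highest. Prefoldin, which hands the chains to CCT, had 4 of 6 genes there, led by PFDN2 at 4029.7 and PFDN5 at 1939 per kb. The cofactors that join alpha and beta tubulin into a dimer had 2 of 7, TBCA at 1329 and TBCC at 1206 per kb. Of the autoregulation factors, CNOT11 had 1530.0 per kb, SCAPER 138 and TTC5 104. The gamma-tubulin ring complex had a median of 286 per kb over 9 genes, led by MZT2B at 898 and NEDD1 at 499.

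The lists of enzymes that modify tubulin had medians per kb below that of the members. The detyrosination and tyrosination list had a median of 353 per kb over 5 genes, led by MATCAP1 at 387 and VASH1 at 386. HDAC6, a deacetylase, had 230.4 per kb and ATAT1, the acetyltransferase, 181. Glutamylases had a median of 70.4 per kb over 8 genes, led by TTLL4 at 356 and TTLL7 at 309.5. Deglutamylases were listed for 4 of 6 genes, led by AGBL5 at 625 and AGTPBP1 at 411 per kb. The glycylases TTLL3 and TTLL10 had 55.7 and 3.45 per kb, and 2 of the 3 glycylases had a mean normalized count under 100.

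Proteins that bind microtubules varied widely. MAPRE1, which tracks growing plus ends, had 4615 per kb and CKAP5, a polymerase, had 1406, within a list whose median was 459 over 11 genes. Microtubule-associated proteins had a median of 109 per kb over 14 genes, led by MAP7 at 1629 and MAP7D1 at 1296. STMN1, which binds free dimers, had 4449 per kb and its neuronal relative STMN2 151. Severing enzymes had a median of 233 per kb over 7 genes, led by KATNA1 at 299. Outside the rule for named genes, and chosen after their values were seen, the neuronal gene MAPT had a mean normalized count of 19.1 and DCX had 1552.

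**Figure D5:**
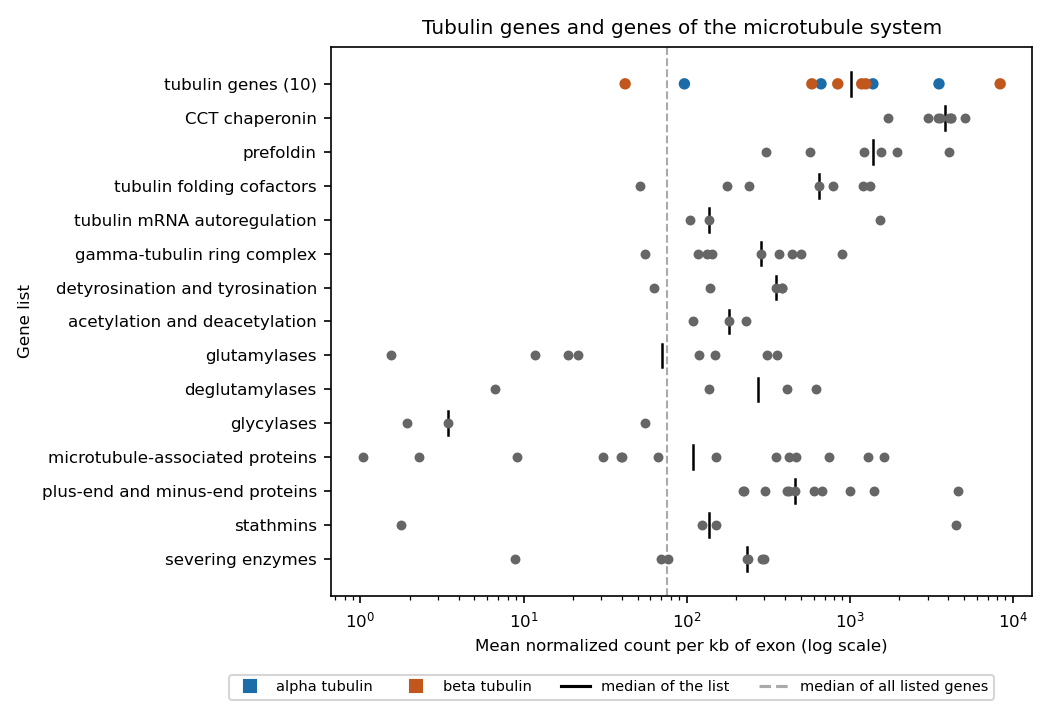
Mean normalized count per kb of exon, on a log axis, of the 10 tubulin genes (blue alpha, orange beta) and of listed genes of 14 microtubule lists (grey), 1 point for each gene. Black bars mark list medians and the dashed line the median of all listed genes (76.2). The CCT chaperonin list has the highest median (3823), above that of the tubulin genes (1014).

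The cell type markers set the tubulin levels in context. All 8 pancreatic progenitor markers were listed, with mean normalized counts of 1222 to 20672, among them PDX1 at 12933 and SOX9 at 20672. All 5 endocrine markers were listed, from 8.32 to 4312, and the lowest was INS. Mesenchyme markers ran from 14.3 to 4091, the highest being COL1A1, and the 3 endothelium markers were under 100. Of the pluripotent cell markers, POU5F1 and NANOG were not listed, LIN28A was at 10333 and DPPA4 at 374.3. Of the hepatocyte markers, AFP was at 26676, APOA1 at 13608 and ALB at 639.9. Of 2 leukocyte markers, 1 was listed, at 48.3. The part of any other cell type in the tubulin levels was not tested.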

How the data were processed

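RNA sequencing of 18 samples was analysed, 3 in each of 6 groups. According to the study's methods and the labels, poly(A) libraries were demultiplexed, aligned with STAR 2.7.2d to GRCh38 with GENCODE v32, counted per gene and compared with DESeq2 1.34.0. The deposited table holds, for each gene and time, a mean normalized count, and the authors' own LN411 against FN comparison (log2 fold change, standard error, statistic, p-value and adjusted p-value). The comparison columns were not used here. The mean normalized count is a signal: the authors divided each sample's counts by its size factor and averaged them. The sources used here do not say which samples entered it. No values per sample were used, so no test, error or depth is given.

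Gene models, lengths and positions were those of GENCODE v44 on GRCh38, matched by Ensembl identifier. Lengths were found for 99.6% of listed genes. Coding sequences were read from the same assembly and aligned by their translation with Biopython 1.88. Exact windows of 50, 75 and 100 bases were searched in the genome on both strands with numpy 2.4.6 in Python 3.11.15. This search was tested on simulated data. The read length is not given in the sources used here. Windows that cross exon junctions were searched only for the canonical transcript, and only in the genome rather than in spliced transcripts of other genes. The members and gene lists were chosen with earlier results of these data known. The genes named were all members, the 5 tubulin pseudogenes with the highest mean, every gene of the tubulin lists, and of each other list the 2 highest per kb. Further genes of a list were named beside its count. Alternatives were 4 other lengths, 2 other windows, the canonical transcript, alternate loci, 2 other gene backgrounds and a minimum of 10 for pseudogenes. Some results on single genes and sequences are not reported here.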

Additional observations from a re-analysis of the deposited data

How the results depend on the processing

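The alpha part of the members' summed level per kb was 31.6% with the exon union, 37.2% with the longest transcript, 37.5% with the coding length, 32.3% with unique 75-base windows and 40.1% with the canonical transcript. The rank of 4 of 10 members moved with the longest transcript, 3 with the coding length, 2 with unique windows and 4 with the canonical transcript, while TUBB4B and TUBA1A stayed first and second under these. The median percent of exon windows shared was 8.63, against 16.2 for windows of 50 bases, 5.88 for 100 bases, 13.8 for the spliced canonical transcript and 13.9 with alternate loci. By mean normalized count, the median and lowest percentile of the members were 84.9 and 50.5 over all listed genes. They were 82.2 and 41.8 over genes listed at all 3 times, and 78.5 and 31.4 over protein-coding genes. Per kb of exon, the median and lowest percentile were 89.9 and 42.0 over listed genes with a length. The pseudogenes summed to 612.5, and to 592.5 without those under 10. The canonical transcript length, its windows and the alternate loci were chosen after seeing the data. No paired analysis was possible because the values used are 1 mean for each gene over samples, and for the same reason no sample could be left out. LN411 against FN has no value here because the authors' comparison columns were not used.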
